A study of Homo sapiens with 30 samples.

Results

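CUL5, UBE2D3, HUWE1 and DDB1 are 4 genes of the ubiquitin system, out of 737 genes targeted by a chromatin-focused knockout library and screened in hepatocellular carcinoma cells. They were taken by gene symbol and were chosen from their Scores in these same screens: CUL5, UBE2D3 and HUWE1 for high values in spheroids, and DDB1 as a contrast from the same ligase machinery. Their values are therefore given as a description, with no test of their own. HLF and PLC/PRF/5 are established human liver cancer lines, grown either as monolayers on plastic (2D) or as spheroids on ultra-low attachment plates in medium with 0.75% methylcellulose (3D). The labels describe 30 libraries in 10 groups of 3, with initial libraries of each line and culture and final libraries taken on day 28. The initial libraries carry day 0, apart from those of PLC/PRF/5 in 3D, which have no day in the labels. Further HLF spheroid groups were kept with DMSO, the vehicle, or with SNDX-5613, an inhibitor of the menin-MLL1 interaction, at 5 µM by the labels, whereas the study's text gives another dose for the screen. All groups carried the same lentiviral library, in which Cas9 and 1 guide RNA come from 1 vector, as a mixed population after puromycin selection. Knockout was therefore not read cell by cell, and neither protein loss nor editing was measured.

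Ubiquitin is passed from an E1 activating enzyme to an E2 conjugating enzyme and then, with the help of an E3 ligase, to a substrate. Cullin-RING ligases are E3 enzymes built on a cullin scaffold: CUL5 pairs with the elongin adaptors and SOCS-box receptors, CUL3 with BTB-domain receptors such as KEAP1 and SPOP, and CUL4A or CUL4B with the adaptor DDB1. UBE2D3 is an E2 of the UbcH5 family that serves many RING and HECT ligases. HUWE1 is a very large HECT ligase that forms a thioester with ubiquitin itself, with MYC, MCL1 and p53 among its known substrates.

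On GRCh38 with the GENCODE v44 annotation, CUL5 lies on the plus strand at chr11:108008898-108107761 and encodes 780 amino acids in 19 exons. DDB1 lies on the minus strand of the same chromosome at chr11:61299451-61342596, with 27 exons and 1140 amino acids. UBE2D3 lies on the minus strand at chr4:102794383-102868896 and is the smallest of the 4 proteins, with 147 amino acids. HUWE1 lies on the minus strand at chrX:53532096-53686752 and is the largest, with 84 exons and 4374 amino acids. The guides are shown because each Score summarises their ranks. The protospacer is in lower case, 5′ to 3′, and the capitals mark the adjacent NGG motif (PAM), read from the genome. Coordinates are those of the protospacer on GRCh38, with the strand it was read from. All 7 UBE2D3 guides of the library were placed, in order along the coding sequence:

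UBE2D3, exon 3, chr4:102809810-102809829, plus strand: ctgcagaacattgtgctggaGGG
UBE2D3, exon 3, chr4:102809801-102809820, minus strand: atgttctgcaggtccagttgGGG
UBE2D3, exon 4, chr4:102809666-102809685, plus strand: acttacaggtcccataattgTGG
UBE2D3, exon 5, chr4:102802619-102802638, minus strand: aatgacagcccatatcaaggCGG
UBE2D3, exon 5, chr4:102802547-102802566, plus strand: gggaaaatacttgccttaggTGG
UBE2D3, exon 6, chr4:102801482-102801501, minus strand: tcgatattctaagatcacagTGG
UBE2D3, exon 7, chr4:102799432-102799451, plus strand: gtgcaatctctggcactaggGGG

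The UBE2D3 cuts fall between 12.2% and 81.0% of the way through the coding sequence. Both exon 3 guides overlap each other on opposite strands, so they are not independent sequences. Of the 7, 3 have further exact matches beside an NGG elsewhere in GRCh38, all in processed pseudogenes. Both exon 3 guides match UBE2D3P1 on chromosome 20 and UBE2D3P2 on chromosome 3, the latter within the gene LRRFIP2, and the exon 6 guide matches UBE2D3P2. The exon 7 guide also matches UBE2D3P1, but not beside an NGG. In transcripts of the paralogs UBE2D1, UBE2D2 and UBE2D4, no UBE2D3 guide had fewer than 2 mismatches beside an NGG. What the extra matches contribute to the UBE2D3 Scores was not tested, since no value per guide was used.

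For the other genes, the guides whose positions were at hand lie in coding exons in the later part of each gene, and each had 1 exact match in GRCh38. The remaining guides of CUL5, HUWE1 and DDB1 were not analysed here. The sequences below were read from the genome at the positions in the guide names.

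CUL5, exon 16, chr11:108095576-108095595, minus strand: caatacagcgagctgaaacgTGG
HUWE1, exon 68, chrX:53547680-53547699, plus strand: agtagtggtagcagtcgtggGGG
HUWE1, exon 70, chrX:53546520-53546539, minus strand: actactgcagctctcccgggGGG
HUWE1, exon 71, chrX:53545047-53545066, minus strand: ccacagaccaccaagctgaaGGG
DDB1, exon 20, chr11:61309902-61309921, plus strand: cttgcaggaaaccagactgaGGG
DDB1, exon 20, chr11:61309868-61309887, plus strand: ccacaatgaagtaagtgttgGGG

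The CUL5 cut falls 76.6% of the way through its coding sequence. The 3 HUWE1 cuts fall between 80.9% and 84.0%, ahead of the C-terminal end that carries the HECT domain. The DDB1 cuts fall at 71.5% and 72.5%.

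Each gene has 1 deposited Score per comparison, which is the base 10 logarithm of its robust rank aggregation (RRA) value with a sign. Below 0 the guides ranked low in the first-named libraries (depleted, so knockout cells were lost), and above 0 they ranked high (enriched). A Score measures how consistently the guides ranked together and not a fold change in cell number. Calls rested on the FDR that came with each Score, at a threshold of 0.05. Against initial libraries the FDR was far stricter above 0 than below it: in HLF 3D, depleted genes were called from a Score of −1.21, whereas enriched genes were called only from 4.58. In HLF 2D a gene at 6.82 was not called, whereas every gene below 0 was called depleted, from a size of 0.028. In PLC/PRF/5 2D genes were called depleted from a size of 0.087. No gene was called enriched in either monolayer screen. Between final libraries the FDR was instead stricter below 0. In HLF 3D over 2D genes were called higher from a Score of 1.97, and a gene as far as 5.15 below 0 was not called. The same values were 2.77 and 5.22 in PLC/PRF/5 3D over 2D. For SNDX-5613 over DMSO genes were called higher from 2.54, and lower only from a size of 4.48. Calls above and below 0 are therefore not on 1 scale, and most genes were called depleted in monolayers. The table holds no value per library, so no SD between the 3 replicates is given, and the labels do not say whether replicates were separate cultures. HLF spheroids were screened both without additive and with the vehicle DMSO, and the difference between these screens (the repeat difference) is the only error at hand, with an SD of 1.50 over 737 genes, and of 2.33 over the 32 genes whose mean Score in both was at least 3.

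CUL5, the scaffold of the elongin-SOCS ligases, was near 0 or weakly depleted in monolayers and high in every spheroid screen. Its Score over the initial libraries was 0.68 in HLF 2D, 10.01 in HLF 3D, 14.37 in HLF 3D with DMSO, 12.06 in HLF 3D with SNDX-5613, −1.10 in PLC/PRF/5 2D and 5.78 in spheroids of that line. All 4 spheroid values lay above both monolayer values. Its choice for high spheroid values favours this, and the share of all genes with such a separation was not counted. In HLF 3D it stood 2nd highest of 737 genes, with an FDR of 0.001217, and with DMSO it was the highest, with an FDR of 0.000456. With SNDX-5613 it was 5th highest. In HLF 2D it was not called, at an FDR of 1, and ranked higher than 91.2% of the other genes. In PLC/PRF/5 2D it was called depleted at an FDR of 1.1e-05 in spite of its small Score, as were 65.8% of all genes. CUL5 and KDM4B, a histone demethylase, were the 2 genes that were not called in HLF 2D and were enriched in HLF 3D. Since every gene below 0 was called in HLF 2D, not called there means only a Score that was not below 0.

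UBE2D3, the E2 enzyme, went from clearly depleted in monolayers to enriched in 3 of 4 spheroid screens. Its Score was −3.61 in HLF 2D, 2.88 in HLF 3D, 5.36 with DMSO, 7.73 with SNDX-5613, −3.51 in PLC/PRF/5 2D and 7.56 in spheroids of that line. Its monolayer values in the 2 lines were 0.10 apart. In HLF 3D its FDR was 0.624794 and it was not called, while the repeat with DMSO was called at 0.005474. The difference between these repeats, 2.49, was 1.66 SDs of the repeat difference over all genes (1.07 over high-scoring genes), and the call therefore turned on a difference of that size.

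HUWE1, the HECT ligase, was depleted in both monolayers and enriched in PLC/PRF/5 spheroids and in HLF spheroids kept with SNDX-5613. Its Score was −3.54 in HLF 2D, 4.02 in HLF 3D, 2.86 with DMSO, 11.31 with SNDX-5613, −1.60 in PLC/PRF/5 2D and 4.89 in spheroids of that line. All spheroid Scores lay above 0 and all monolayer Scores below it, which its choice for high spheroid values favours. How many of all genes did so was not counted. HLF 3D and its DMSO repeat had FDRs of 0.129562 and 0.328561, and neither was called. With SNDX-5613 the FDR was 0.000261, and in PLC/PRF/5 3D it was 0.010167.

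DDB1, the CUL4 adaptor and also a subunit of the DNA damage sensor with DDB2, was depleted in 5 of the 6 screens and enriched in none. Its Score was −4.57 in HLF 2D, −1.43 in HLF 3D, −1.31 with DMSO, −1.30 with SNDX-5613, −3.26 in PLC/PRF/5 2D and 0.88 in spheroids of that line. HLF spheroid values spanned a range of 0.13 over the 3 screens, and their FDRs were 0.027511, 0.008991 and 0.003737. Monolayer Scores were lower than spheroid Scores here too, an order whose share over all genes was not counted, but no spheroid Score rose past 1. PLC/PRF/5 3D was the screen in which DDB1 was not called, at an FDR of 1.

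**Figure D1:**
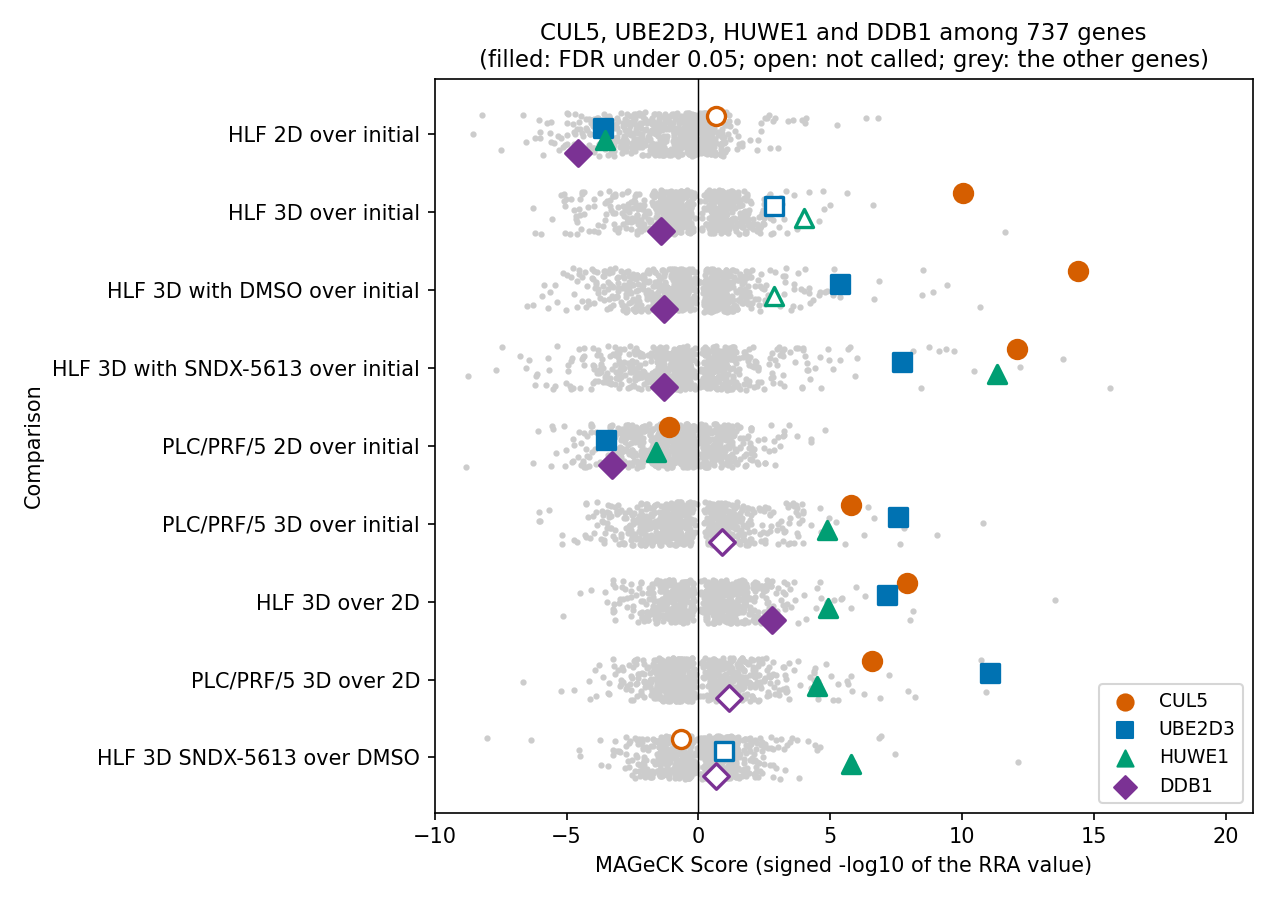
MAGeCK Score (horizontal axis, signed −log10 of the RRA value) of CUL5, UBE2D3, HUWE1 and DDB1 in each of 9 comparisons (vertical axis), with the other genes as grey points. Symbols are filled where the deposited FDR was under 0.05, and CUL5 reaches 14.37 in HLF 3D with DMSO whereas DDB1 stays at or below 2.80 throughout.

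No gene of the library was called enriched in either monolayer screen, so the calls there, counted over the 4 genes, were all below 0. In HLF 2D 3 were depleted, beside 68.0% of all genes tested, and in PLC/PRF/5 2D all 4 were, beside the 65.8% given above. In HLF 3D 1 was depleted (27.1% of all genes) and 1 enriched (1.09%). With DMSO 1 was depleted (41.5%) and 2 were enriched (2.58%), and with SNDX-5613 1 was depleted (51.0%) and 3 were enriched (3.53%). In PLC/PRF/5 3D none was depleted (23.7%) and 3 were enriched (2.31%). Because the genes were picked for these values, nothing is read from the counts.

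The direct comparison of final libraries, 3D over 2D, needs no initial libraries. In HLF, CUL5 had a Score of 7.90, UBE2D3 of 7.13, HUWE1 of 4.90 and DDB1 of 2.80, and all 4 were called higher in 3D, beside 12.2% of all genes. In PLC/PRF/5, UBE2D3 reached 11.05, the highest of 737 genes, followed by CUL5 at 6.56, HUWE1 at 4.50 and DDB1 at 1.17. Of these, 3 were called higher, beside 7.06% of all genes, and DDB1 was not, at an FDR of 0.576622. Of the 33 genes called higher in both lines, ordered by the lower of their Scores in the 2 lines, UBE2D3 was 2nd at 7.13, CUL5 3rd at 6.56 and HUWE1 7th at 4.50. CUL3 was 1st at 10.91. CUL5 led UBE2D3 in HLF and followed it in PLC/PRF/5. The gap was 0.76 in HLF and 4.49 in PLC/PRF/5. The repeat difference compares the same gene between HLF screens over initial libraries, so it does not measure the error of these gaps. In PLC/PRF/5 the number tags of the column names differ between 2D and 3D, and what the tags stand for is not stated.

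Taken as a difference of Scores over the initial libraries, 3D minus 2D, CUL5 gained 9.34 in HLF and 6.89 in PLC/PRF/5. UBE2D3 gained 6.49 and 11.08, HUWE1 7.56 and 6.49, and DDB1 3.15 and 4.14. The median over all genes was 0.56 in HLF and 0.23 in PLC/PRF/5. In HLF the gains were 6.23 SDs of the repeat difference for CUL5, 4.33 for UBE2D3, 5.04 for HUWE1 and 2.10 for DDB1. CUL5, UBE2D3 and HUWE1 belong to the high-scoring genes with the wider SD of 2.33, in units of which their gains were 4.0, 2.78 and 3.24. The HLF gains came about differently. There CUL5 started near 0 and moved upward, UBE2D3 and HUWE1 crossed 0, and DDB1 moved from strong to weak depletion. Each of the 4 genes crossed 0 in PLC/PRF/5, CUL5 from −1.10 to 5.78 and DDB1 from −3.26 to 0.88. HUWE1 and UBE2D3 were not the only strongly depleted genes to cross 0. Of 110 genes with an HLF 2D Score of −3 or lower, 20.9% had a Score above 0 in HLF 3D, among which HUWE1 was 4th highest and UBE2D3 7th. Of 63 such genes in PLC/PRF/5, 27.0% lay above 0 in 3D, with UBE2D3 highest and DDB1 in place 16. The median 3D Score of these strongly depleted genes was −2.23 in HLF and −1.82 in PLC/PRF/5, so most stayed depleted. The cutoff of −3 was chosen after the values were seen.

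**Figure D2:**
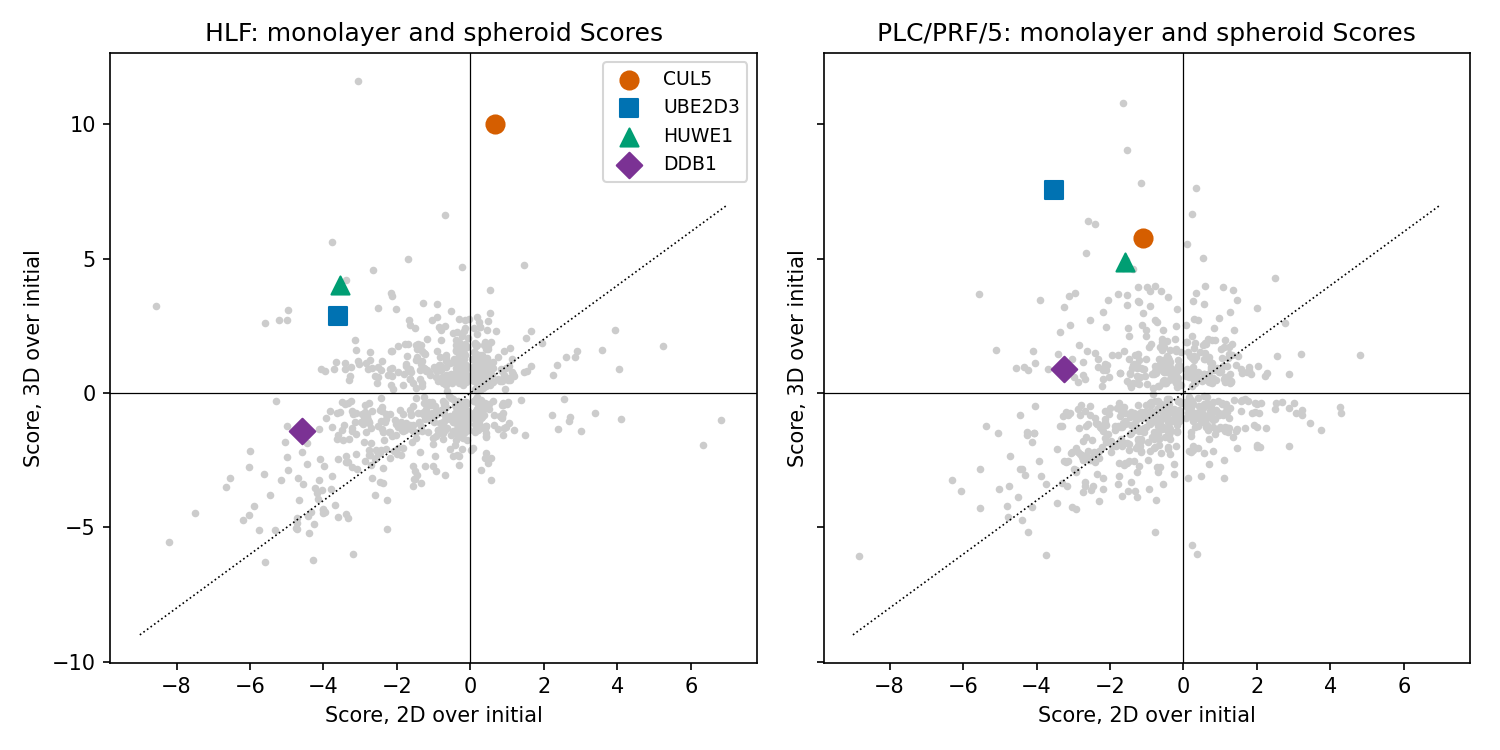
Score over the initial libraries in 3D (vertical axis) against that in 2D (horizontal axis) for HLF (left) and PLC/PRF/5 (right), with each gene as a point, the 4 genes as coloured symbols and a dotted line of equal Scores. CUL5, UBE2D3 and HUWE1 sit above 0 in 3D in both panels, while DDB1 sits at −1.43 in HLF and 0.88 in PLC/PRF/5, still above the line.

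Between the lines, the 3 genes did not keep 1 order. CUL5 was 4.23 lower in PLC/PRF/5 3D than in HLF 3D, and UBE2D3 was 4.69 higher. HUWE1 differed by 0.87 between the spheroid screens and by 1.94 between the monolayers. The repeat difference comes from HLF spheroids alone, so it does not measure the error between the lines. In PLC/PRF/5, CUL5, UBE2D3 and HUWE1 belonged to 12 genes that were depleted in 2D and enriched in 3D. The other genes of that class were CUL3 and its receptor SPOP, the deubiquitinase USP21, the demethylase KDM1A and its partner RCOR1, DPF2 of the BAF complex, NCOA6 and PAXIP1 of H3K4 methyltransferase complexes, and the cohesin loader NIPBL. With HLF 3D without additive, no such sign change was called for the 4 genes. CUL5 was not called in 2D, and DDB1 was among 172 genes depleted in both. UBE2D3 and HUWE1 fell among 323 genes depleted in 2D and not called in 3D. Of the other HLF spheroid screens, UBE2D3 was enriched with DMSO (5.36) and with SNDX-5613 (7.73), and HUWE1 with SNDX-5613 (11.31). Beside their depletion in HLF 2D, those were called sign changes, although in HLF 2D every gene below 0 was called depleted.

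The HLF spheroid screen without additive and the one with DMSO are the only repeat of a culture condition. CUL5 was 4.35 higher with DMSO, 2.90 SDs of the repeat difference over all genes (1.87 over high-scoring genes) and the 5th largest rise of 737 genes, while it stood at or next to the top in both. UBE2D3 was 2.49 higher, HUWE1 1.15 lower and DDB1 0.12 higher. Beside the vehicle, these screens differ in the number tag of their columns, and the study lists initial libraries of its own for the inhibitor screen, so vehicle and initial libraries cannot be told apart. What the tags stand for is not stated.

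With SNDX-5613 against DMSO, HUWE1 was the gene of the 4 that moved. In the direct comparison its Score was 5.78 with an FDR of 0.000456, 6th highest of 737 genes. It was the single member called higher with the inhibitor, beside 4.07% of all genes, and none was called lower, beside 0.543%. The Score over the initial libraries went from 2.86 with DMSO to 11.31 with SNDX-5613, a difference of 8.44 and the 3rd largest rise of all genes. That was 5.63 SDs of the repeat difference over all genes, and 3.62 SDs over high-scoring genes. HLF 3D without additive, at 4.02, lay between these but close to DMSO. CUL5 had a Score of −0.68, UBE2D3 of 0.95 and DDB1 of 0.65 in the direct comparison, with FDRs of 0.966816, 0.420434 and 0.63131, and none was called. Their differences over the initial libraries were −2.31, 2.37 and 0.02, and those of CUL5 and UBE2D3 ran in opposite directions at −1.54 and 1.58 SDs of the repeat difference over all genes, or −0.99 and 1.01 over high-scoring genes. CUL3, the other cullin that was high in spheroids, was called lower with SNDX-5613 at −8.02 and fell from 10.67 to 3.66 over the initial libraries. The direct comparison and the screens over initial libraries use the same SNDX-5613 and DMSO libraries, so these values are not separate pieces of evidence.

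**Figure D3:**
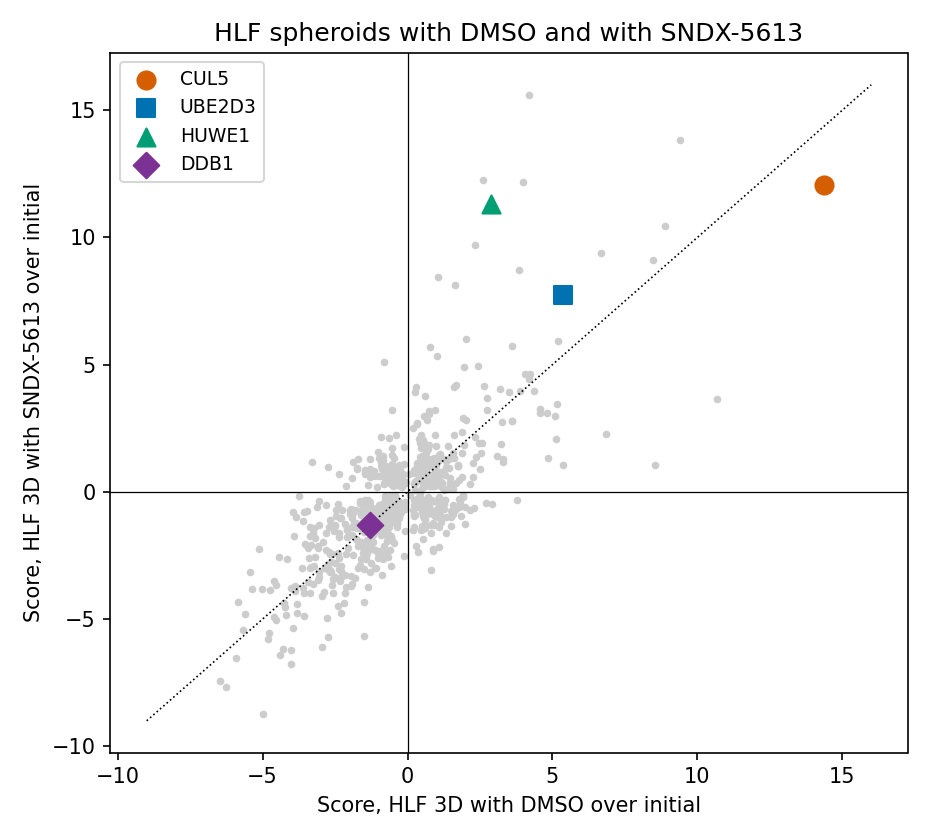
Score over the initial libraries in HLF spheroids with SNDX-5613 (vertical axis) against that with DMSO (horizontal axis), with each gene as a point and a dotted line of equal Scores. HUWE1 lies far above the line (2.86 and 11.31), CUL5 is high on both axes (14.37 and 12.06), and DDB1 lies near −1.3 on both.

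The library held 64 genes of 6 ubiquitin lists, and none of the neddylation list. Of the 6 cullin scaffolds, CUL3 and CUL5 were called higher in 3D over 2D in both lines, and the other 4 in neither. CUL3 reached 13.50 in HLF and 10.91 in PLC/PRF/5. The lowest cullins were CUL2 at 0.41 in HLF and CUL1 at −1.37 in PLC/PRF/5, and neither was called. Over the initial libraries CUL3 resembled UBE2D3 more than CUL5 in HLF 2D, where it was depleted at −3.06. Other screens went either way: CUL3 was nearer CUL5 in HLF 3D (11.62) and nearer UBE2D3 in PLC/PRF/5 3D (9.04). Its Pearson correlation over the 9 Scores was 0.75 with CUL5 and 0.72 with UBE2D3. CUL1 and CUL2 were called depleted in all 6 screens, from −0.85 to −2.83. The median Score of the 6 cullins in 3D over 2D was 1.35 in HLF and 0.90 in PLC/PRF/5, against 0.40 and −0.29 over all genes. Without CUL5, which was chosen for its values, the median of the other 5 was 0.93 and 0.71.

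Of the 9 cullin-RING adaptors and receptors, 3 were called higher in HLF (KEAP1 at 4.59, SPOP at 2.90 and DDB1) and 3 in PLC/PRF/5 (SPOP at 10.72, PHIP at 3.37 and KEAP1 at 2.82). These counts, out of 9 (33.3% in each line), stand beside 12.2% of all genes in HLF and 7.06% in PLC/PRF/5, which also apply to the list counts below. Without DDB1 they were 2 of 8 (25.0%) in HLF and 3 of 8 (37.5%) in PLC/PRF/5. KEAP1 and SPOP are both CUL3 receptors, but KEAP1 did not follow CUL3 throughout. Over the initial libraries KEAP1 stood at 2.76 in PLC/PRF/5 2D and 2.61 in 3D, called in neither. With SNDX-5613 against DMSO CUL3 fell by 7.01, whereas KEAP1 was 1.57 and SPOP 0.66 higher. The lowest were DDB2, the partner of DDB1, at −1.60 in HLF and SKP1, the CUL1 adaptor, at −0.78 in PLC/PRF/5. The CUL4 scaffolds that use DDB1, named after their values were seen, mostly did not share its depletion. CUL4A lay between 0.48 and 1.29 in the 6 screens and was called in none. CUL4B lay between −0.40 and 2.14 and was called depleted in 1, HLF 2D, where every gene below 0 was called. RBX1, the RING subunit of the CUL1 to CUL4 ligases, was depleted in all 6, from −2.47 to −4.08, as was SKP1, from −2.82 to −5.69. RBX1 stayed depleted in PLC/PRF/5 3D at −2.50, where DDB1 stood at 0.88 and was not called. Since RBX1 also serves CUL1 and CUL2, its depletion cannot be tied to DDB1, and a link between them was not tested. The list named no SOCS-box receptor of CUL5, so none was looked for.

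Among the measured E2 genes, UBE2D3 had the highest 3D over 2D Score in both lines. The E1 and E2 list had 8 measured genes, all of them E2 enzymes. Of these, UBE2D3 and UBE2T (2.14) were called higher in HLF and UBE2D3 in PLC/PRF/5. The lowest were UBE2B at −1.36 in HLF and UBE2H at −1.72 in PLC/PRF/5. UBE2D1, a paralog of UBE2D3 on the same list, lay between −0.58 and 1.10 in the 6 screens over initial libraries and was called in none. The median of the 8 in 3D over 2D was 1.24 in HLF and −0.75 in PLC/PRF/5. Without UBE2D3 the median of the other 7 was 1.02 and −0.87, so in PLC/PRF/5 it stood above a list centred below 0.

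HUWE1, 1 of 2 HECT ligases measured, was called higher in 3D over 2D in both lines. Of 22 RING and RING-like ligases outside the cullin family, 2 were called higher in HLF, with RNF40 highest at 2.78, and none in PLC/PRF/5, where RING1 was highest at 2.50. Of 17 deubiquitinases, 1 was called higher in HLF (USP7 at 5.14) and 2 in PLC/PRF/5 (USP21 at 6.28 and USP7 at 3.61). USP7, known for removing ubiquitin from p53 and MDM2, was the deubiquitinase called in both lines. The lowest were UBR7 at −2.79 and MSL2 at −2.40 among RING ligases, and USP22 at −5.15 and USP36 at −1.56 among deubiquitinases, in HLF and PLC/PRF/5 in each case, and none was called. Over all 64, 11 were called higher in HLF (17.2%) and 9 in PLC/PRF/5 (14.1%), and without the 4 genes 7 of 60 (11.7%) and 6 of 60 (10.0%). Over all genes these shares were 12.2% in HLF and 7.06% in PLC/PRF/5. No test of the lists was made.

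**Figure D4:**
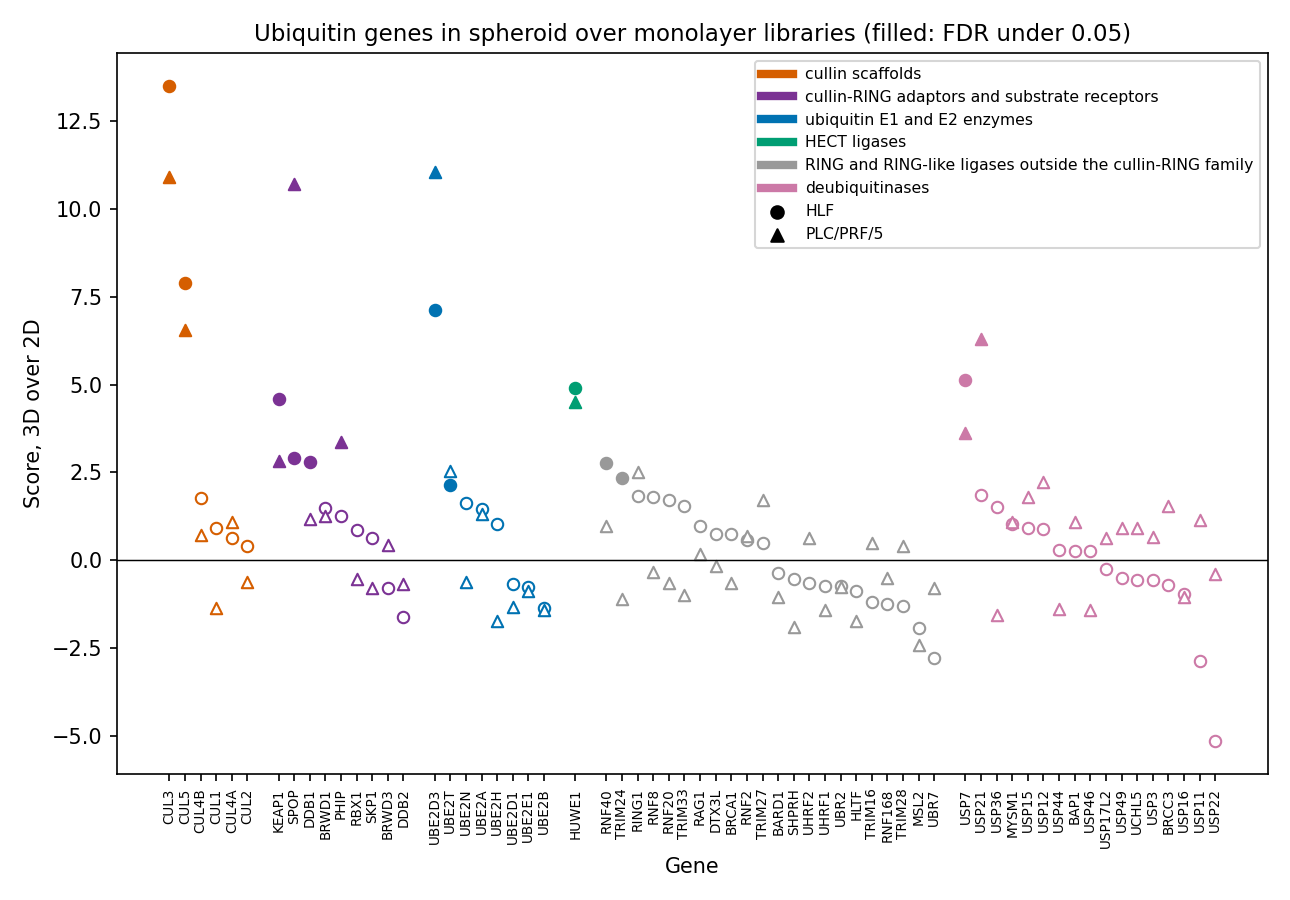
Score in 3D over 2D (vertical axis) for measured ubiquitin genes (horizontal axis, by list and in order of the HLF Score), as circles for HLF and triangles for PLC/PRF/5, filled where the FDR was under 0.05. CUL3, CUL5, UBE2D3, HUWE1, KEAP1, SPOP and USP7 are filled in both lines, and most RING ligases lie near or below 0.

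The genes with the most similar pattern were found by Pearson correlation of the 9 Scores, which share libraries and are not independent. For CUL5 these were ZFP57 (r = 0.98), C11orf30 (0.95) and KDM4A (0.94), at far lower Scores: ZFP57 ran from −0.95 to 3.97 and KDM4A did not pass 2.26. For UBE2D3 they were HMGB1 (0.96), USP15 (0.95) and KDM1A (0.95), and KDM1A also had Scores of like size, from −1.69 to 9.38. For HUWE1 they were ADNP (0.97), PPP2CA (0.96) and HSPA1B (0.95), and ADNP, like HUWE1, spanned a wide range, from −2.95 to 12.18. For DDB1 they were MUM1 (0.96), POLE3 (0.93) and JMJD6 (0.93). Among the 4 genes themselves, r over the 9 Scores was highest for UBE2D3 with DDB1 (0.76) and UBE2D3 with HUWE1 (0.73), and lowest for CUL5 with DDB1 (0.25). CUL5 with UBE2D3 gave 0.66, CUL5 with HUWE1 0.55 and HUWE1 with DDB1 0.60. DDB1 was only in place 53 of the genes most like UBE2D3, and their Scores differed by up to 9.88, in PLC/PRF/5 3D over 2D.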

How the data were processed

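Guide RNAs were amplified from genomic DNA of pooled CRISPR-Cas9 knockout cells and sequenced. Guide counts were compared between libraries by the authors in MAGeCK against non-targeting controls (tool version and guide design build: not given in the sources used here). For each gene they deposited a score, the signed −log10 of the RRA value, and an FDR, a p-value adjusted over genes (737 genes, 9 comparisons). Undoing the logarithm turned all 6633 Scores into numbers of 5 significant digits, within a tolerance of 2e-09, as the tool prints RRA values. Counts per library were not used, so depth is unknown and no interval is given. Columns named 2D against 3D ran as 3D over 2D, since they correlated positively with the difference of the single screens (r = 0.88 in each line), and the inhibitor column likewise (r = 0.78).

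Groups came from the labels. Calls used the deposited FDR under 0.05, with no test added. The members and lists were chosen with earlier results of these data known. Named genes were the 4 members, the highest and the lowest gene of each list in 3D over 2D (1 of them is not reported here), and the 3 genes most like each member. Other genes were named after their values were seen. All 168 library guides at hand on chromosomes 4, 11 and X matched GRCh38 at their stated cut site. Python 3.11.15, pandas 2.3.3, numpy 2.4.6 and matplotlib 3.10.9 were used. The calling and likeness steps were tested on simulated data, but recovery by Spearman correlation was not required to pass. Other steps had no such test. Other thresholds, likeness measures and the DMSO repeat were tried as alternatives.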

Additional observations from a re-analysis of the deposited data

How the results depend on the processing

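No value per library was used, so leaving out single replicates could not be run, and depth limits could not be given. No paired analysis was possible because the columns carry no replicate number and hold 1 value per comparison. None of the Score differences changed sign under the alternatives run, which for most of them was only centring each screen on its median. Counts of calls and of shared genes have no direction that could reverse. At an FDR under 0.01, the depleted call of DDB1 in HLF 3D was lost (0 members), and the ubiquitin lists had 10 depleted genes in HLF 3D, 7 depleted in PLC/PRF/5 3D and 6 higher in HLF 3D over 2D. Without the 4 genes, the lists had 3 enriched genes with DMSO, 3 with SNDX-5613, 3 in PLC/PRF/5 3D, 7 higher in HLF 3D over 2D and 0 higher with SNDX-5613 over DMSO. With the DMSO repeat in place of HLF 3D, the 3D minus 2D difference of CUL5 became 13.69 and that of UBE2D3 8.98, while those of HUWE1 and DDB1 moved by less than the SD of the repeat difference. That SD was 1.50 over all genes and 2.33 over high-scoring genes, an alternative chosen after seeing the data.

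The genes most like each member depended on the measure. Of the 3 named for CUL5, 1 was kept by Spearman correlation, 1 by Pearson correlation over the 6 comparisons with initial libraries and 0 by Euclidean distance. For UBE2D3, the last 2 measures kept 1 each. For HUWE1, Euclidean distance kept 1. For DDB1, Spearman correlation kept 1 and Pearson correlation over the 6 comparisons kept 0.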
